A study of Mus musculus with 11 samples.

Results

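The GDNF-family signalling genes of the mouse were followed here in sensory neurons of the trigeminal ganglion, the ganglion that supplies the face and mouth. The members are the 9 genes of the family by name, Ret, the co-receptor genes Gfra1, Gfra2, Gfra3 and Gfra4, and the ligand genes Gdnf, Nrtn, Artn and Pspn. All 9 were found, each as a single entry among the 55401 genes of the count tables. Mice bearing tumours of MOC1, a line of mouse oral squamous carcinoma cells, were compared with sham mice. Cells of both ganglia that carried DiI, a tracer taken up by nerve endings and carried back to the cell body, were collected by fluorescence-activated sorting, and poly(A) RNA of each sort was sequenced. There were 3 libraries of MOC1 females, 3 of MOC1 males, 3 of sham females and 2 of sham males. Strain, age, tumour site and time of collection are left unstated in the sources used here. Nor do the labels tie each library to its own animal, so the p-values measure the spread between these libraries, which may be technical.

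GDNF, neurturin, artemin and persephin are secreted growth factors. Each binds a GPI-anchored co-receptor, encoded in that order preferentially by Gfra1, Gfra2, Gfra3 and Gfra4, and the pair then engages the tyrosine kinase RET, which carries the signal into the cell. In sensory ganglia Ret marks many nonpeptidergic nociceptors and some large mechanoreceptors, Gfra2 many of the nonpeptidergic cells, and Gfra3 peptidergic nociceptors. The ligands are mostly made by the skin, muscle and glia around the nerve rather than by the neurons themselves.

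Each library held between 10757426 and 16703797 reads in genes, and between 14180 and 19078 genes were detected. MOC1 female 3, MOC1 male 2 and sham female 1 were known from earlier work on these data to stand apart, and values without these 3 libraries are given where they change a call, turn a direction or move a receptor gene by over 1.5 times. Levels are CPM, reads scaled to a common library total after TMM normalisation. The 20 pan-neuronal markers summed to between 14760 and 17279 CPM in MOC1 libraries and between 11613 and 14193 CPM in sham libraries, and 9 of them were higher and 0 lower in MOC1, led by Tubb3 and Prph, with a median log2 change of 0.27. The 16 markers of satellite glia, which ensheathe sensory neurons, summed to between 4404 and 7085 CPM in MOC1 libraries and between 10938 and 12615 CPM in sham libraries. Of these 16 markers 14 were lower, led by Fabp7 and Apoe, 0 were higher and none was at 0 in every library, and their median was -1.14. The groups did not overlap in either sum, and the part of these differences in the results on the family was not tested. In RNA from pooled cells, fewer cells of a type and less RNA per cell cannot be told apart.

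Markers of other cells were scarcer or less uniform. Of 14 Schwann cell markers 4 were lower and 2 were higher, Scn7a and L1cam, which neurons also express. Their sum lay between 3023 and 3303 CPM with MOC1 and between 2930 and 3117 CPM with sham. Fibroblast markers summed to between 61.3 and 72.4 CPM in MOC1 and between 88.9 and 178 CPM in sham libraries, with 1 of 6 tested lower (Col1a2) and Dpt at 0 throughout. Vessel markers summed to between 110 and 210 CPM in MOC1 and between 154 and 876 CPM in sham libraries, with 2 of 8 lower (Cspg4 and Cldn5). Macrophage markers summed to at most 18.2 CPM with MOC1 and 23.7 CPM with sham, with 0 of 8 called by edgeR and a smallest unadjusted p of 0.104. Of 8 markers of squamous epithelium and tumour 5 were tested and 0 called by edgeR, and Krt5 and Krt6a were at 0 throughout. Their sum lay between 396 and 519 CPM with MOC1 and between 397 and 451 CPM with sham, and Cdh1 alone reached 509 CPM. Dsg3 and Epcam had the smallest unadjusted p in edgeR, 0.0270 and 0.0279, and went opposite ways near 0. Dsg3 averaged 0.537 CPM with MOC1 and 0 with sham, and Epcam 0 with MOC1 and 0.430 CPM with sham.

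Ret (chromosome 6, 118151745 to 118197718, minus strand, GRCm38), the signalling receptor, was among the most abundant transcripts of these neurons. In reads per kb of exon it ranked between 108 and 178 of 54349 genes with a known exon length, depending on the library. It stood at 1064, 1187 and 1299 CPM in the MOC1 females and 1244, 1047 and 1126 CPM in the MOC1 males, against 1034, 925 and 942 CPM in the sham females and 1098 and 1095 CPM in the sham males. Of the 6 MOC1 libraries 4 lay above the highest sham library, and the groups overlapped. The mean was 1161 ± 100 CPM with MOC1 (SD, n = 6) and 1019 ± 82.0 CPM with sham (SD, n = 5). The fold change of MOC1 over sham was 1.14, with a 95% confidence interval from 1.02 to 1.26 (log2 0.19 ± 0.07 SE). It did not pass the threshold of 0.05 in edgeR's quasi-likelihood test with Benjamini-Hochberg adjustment over all genes (adjusted p = 0.155, unadjusted 0.0188).

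None of the 9 members was called higher or lower in MOC1 by edgeR, where 6.62% of the 16817 genes tested were called, 394 higher (2.34%) and 719 lower (4.28%). None had groups that did not overlap, as 6.33% of all genes did, 2.15% with MOC1 higher and 4.18% with MOC1 lower. Of the members, 6 passed the low-count filter and 3 of them had an unadjusted p under 0.05, as did 3104 of the 16817 genes tested. DESeq2 and voom with quality weights also called 0 members, again with 3 at an unadjusted p under 0.05. Of the same 16817 genes 3254 were under 0.05 with DESeq2 and 3438 with voom.

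Gfra1 (chromosome 19, 58235604 to 58455909, minus strand) encodes the preferred co-receptor of GDNF. It stood at 129, 139 and 130 CPM in the MOC1 females and 115, 120 and 108 CPM in the MOC1 males, against 77.4, 113 and 97.7 CPM in the sham females and 105 and 123 CPM in the sham males. The lowest value of all was that of sham female 1, and the MOC1 females were the 3 highest libraries. The fold change was 1.20 (95% interval 1.02 to 1.40, log2 0.26 ± 0.11 SE, adjusted p = 0.205, edgeR). The log2 change was 0.17 without sham female 1 and 0.16 without the 3 libraries that stood apart.

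Gfra2 (chromosome 14, 70890120 to 70979838, plus strand) encodes the preferred co-receptor of neurturin. It stood at 182, 172 and 203 CPM in the MOC1 females and 246, 187 and 218 CPM in the MOC1 males, against 183, 154 and 172 CPM in the sham females and 184 and 181 CPM in the sham males. Of the 6 MOC1 libraries 4 exceeded every sham library, among them all 3 of the males. The fold change was 1.14 (95% interval 1.00 to 1.29, log2 0.19 ± 0.09 SE, adjusted p = 0.247, edgeR).

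Gfra3 (chromosome 18, 34689898 to 34720387, minus strand) encodes the co-receptor of artemin. It stood at 94.5, 103 and 91.2 CPM in the MOC1 females and 122, 145 and 149 CPM in the MOC1 males, against 110, 95.7 and 91.8 CPM in the sham females and 120 and 89.8 CPM in the sham males. The 3 MOC1 males were the highest of the 11 libraries, while the MOC1 females lay among the sham libraries. The fold change over both sexes was 1.11 (95% interval 0.947 to 1.31, log2 0.15 ± 0.11 SE, adjusted p = 0.533, edgeR). The log2 change was 0.04 without sham male 3.

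Gfra4 (chromosome 2, 131039632 to 131043088, minus strand), which encodes the co-receptor of persephin, was far less abundant. It stood at 7.23, 3.86 and 14.3 CPM in the MOC1 females and 6.94, 6.04 and 7.59 CPM in the MOC1 males, against 5.08, 6.85 and 7.67 CPM in the sham females and 5.66 and 5.76 CPM in the sham males. MOC1 female 2 and MOC1 female 3 held the lowest and the highest value of all libraries. The fold change was 1.25 with a wide 95% interval, 0.749 to 2.09 (log2 0.32 ± 0.35 SE, adjusted p = 0.726, edgeR), and the log2 change was 0.01 without MOC1 female 3, 0.49 without MOC1 female 2 and -0.018 without the 3 libraries that stood apart. The counts behind it lay between 58 and 194 reads per library, against 1019 or more for every other receptor gene.

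**Figure D1:**
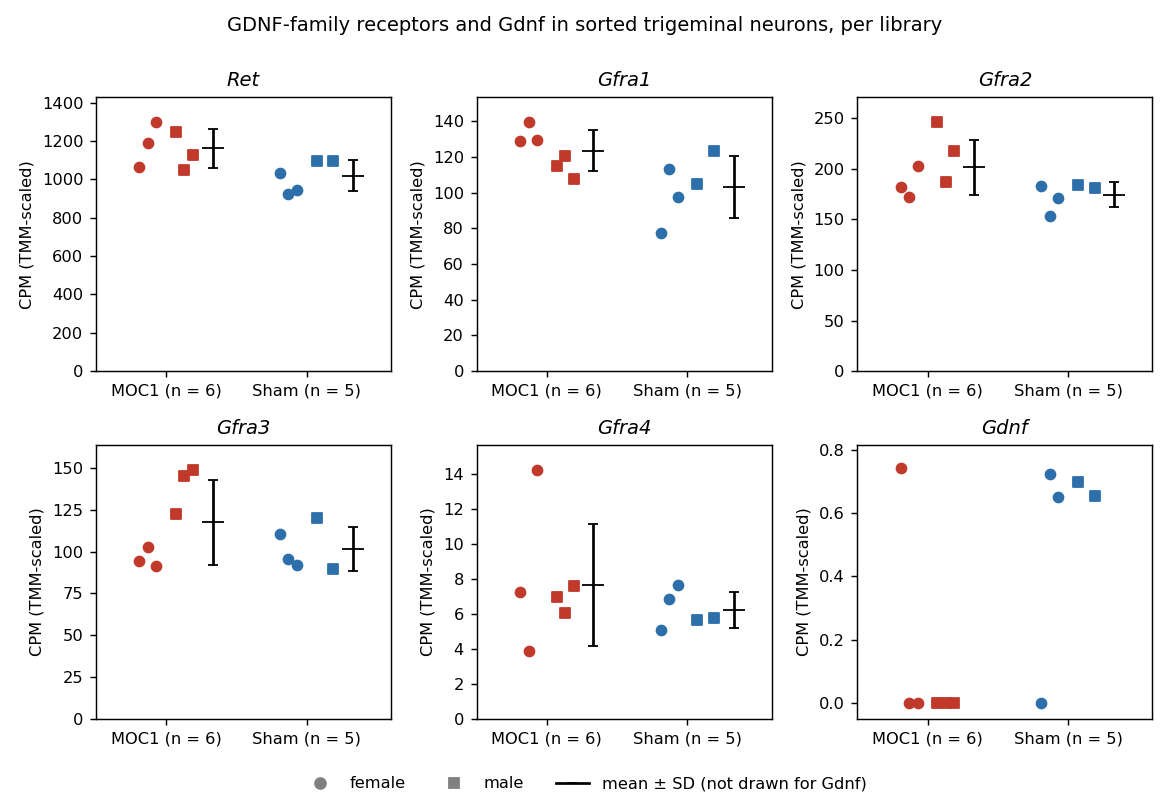
CPM after TMM scaling (vertical axes, each with its own range) of Ret, Gfra1, Gfra2, Gfra3, Gfra4 and Gdnf in 6 MOC1 libraries (left in each panel) and 5 sham libraries (right). Circles are females and squares males, and the bars beside the points give the mean ± SD, which is not drawn for Gdnf. The groups overlap for every gene, the 3 MOC1 females are highest for Gfra1, and the 3 MOC1 males are highest for Gfra3.

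The ligand genes were at or near 0 in these sorted neurons, as raw reads show. Gdnf (chromosome 15, 7810846 to 7837575, plus strand) had 8 reads in MOC1 female 1 and 0 in the other 5 MOC1 libraries, against 0, 12 and 11 reads in the sham females and 11 in each sham male. It thus held a read in 1 of 6 MOC1 libraries and 4 of 5 sham libraries. It passed the low-count filter through the sham libraries, and edgeR's test did not call it (adjusted p = 0.516); its fitted fold change rests on zeros and nothing is read from it. Nrtn (chromosome 17, 56751325 to 56757530), the gene of neurturin, had 8 reads in MOC1 female 2, 3 in MOC1 male 1 and 0 in the other 4 MOC1 libraries, against 2 reads in sham female 1, 14 in sham female 3 and 0 in the other 3 sham libraries. Artn (chromosome 4, 117926162 to 117929763), the gene of artemin, had 7 reads in MOC1 male 3 and 0 in all other libraries of both groups. Pspn (chromosome 17, 56999457 to 57000018), the gene of persephin, had 0 reads in all 11 libraries. A count of 0 allows up to 3 reads, which is between 0.191 and 0.278 CPM in a MOC1 library and between 0.177 and 0.191 CPM in a sham library, for counting error alone. Nrtn and Artn fell under the low-count filter, and with no such filter their adjusted p in edgeR was 0.934 and 0.589.

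Sequence shared with other genes was small. None of the 75-base windows of the annotated transcripts of Gdnf, Nrtn, Artn or Pspn occurs in a transcript of another gene in GENCODE M21, and the same holds for Ret, Gfra2 and Gfra3. In Gfra1, 6.17% of the windows also lie on the antisense gene Gm16277, which strand-specific counting keeps apart. In Gfra4, 0.255% are shared with Mir6973b, a microRNA gene annotated within it on the same strand.

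Levels between genes can be set side by side per kb of exon. Ret averaged 172 ± 14.8 CPM per kb in MOC1 libraries (SD, n = 6) and 151 ± 12.1 CPM per kb in sham libraries (SD, n = 5). Gfra3 averaged 58.8 ± 12.7 CPM per kb in MOC1 and 50.8 ± 6.55 in sham libraries, and Gfra2 averaged 56.9 ± 7.72 CPM per kb in MOC1 and 49.3 ± 3.55 in sham libraries. Gfra1 averaged 22.5 ± 2.10 CPM per kb in MOC1 and 18.9 ± 3.16 in sham libraries, and Gfra4 averaged 3.54 ± 1.62 CPM per kb in MOC1 and 2.87 ± 0.481 in sham libraries. By exon length the order was Ret, then Gfra3 and Gfra2, whose means lay within their spread, then Gfra1, then Gfra4, with the 4 ligand genes below. By coding length Gfra2 held 37.1% of the Gfra reads per kb over all libraries, Gfra3 32.7% and Gfra1 27.8%. In MOC1 females Gfra1 then held more than Gfra3, 32.1% against 28.6%, while in the other groups of tumour and sex Gfra3 held more. The ratios that follow are by exon length and depend on it. Ret stood at 2.64 to 3.62 times the Gfra2 level in MOC1 libraries and 2.87 to 3.17 times in sham libraries. It stood at 6.69 to 8.78 times the Gfra1 level in MOC1 and 6.61 to 10.8 times in sham libraries. Summed per kb, Gfra1, Gfra2 and Gfra3 together reached 0.811 ± 0.118 of the Ret level in MOC1 libraries (SD, n = 6) and 0.791 ± 0.0346 in sham libraries (SD, n = 5).

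The mean make-up of the co-receptor pool differed between the groups by less than the spread between libraries. Gfra3 held 41.2% ± 5.43 of the Gfra reads per kb of exon in MOC1 (SD, n = 6) and 41.6% ± 3.35 in sham libraries (SD, n = 5). Gfra2 held 40.1% ± 3.54 in MOC1 and 40.5% ± 2.05 in sham libraries. Gfra1 held 16.2% ± 3.10 in MOC1 and 15.5% ± 2.88 in sham libraries. Gfra4 held 2.52% ± 1.26 in MOC1 and 2.37% ± 0.510 in sham libraries. By sex, Gfra3 held 37.5% ± 3.10 in MOC1 females and 42.0% ± 2.59 in sham females (SD, n = 3 each), and 44.9% ± 4.73 in MOC1 males (SD, n = 3) and 41.0% ± 5.50 in sham males (SD, n = 2). Gfra1 held 18.8% ± 1.12 in MOC1 females and 14.9% ± 3.29 in sham females, and 13.5% ± 1.15 in MOC1 males and 16.4% ± 3.01 in sham males. The shares are a description, with no test, and depend on the gene length used.

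**Figure D2:**
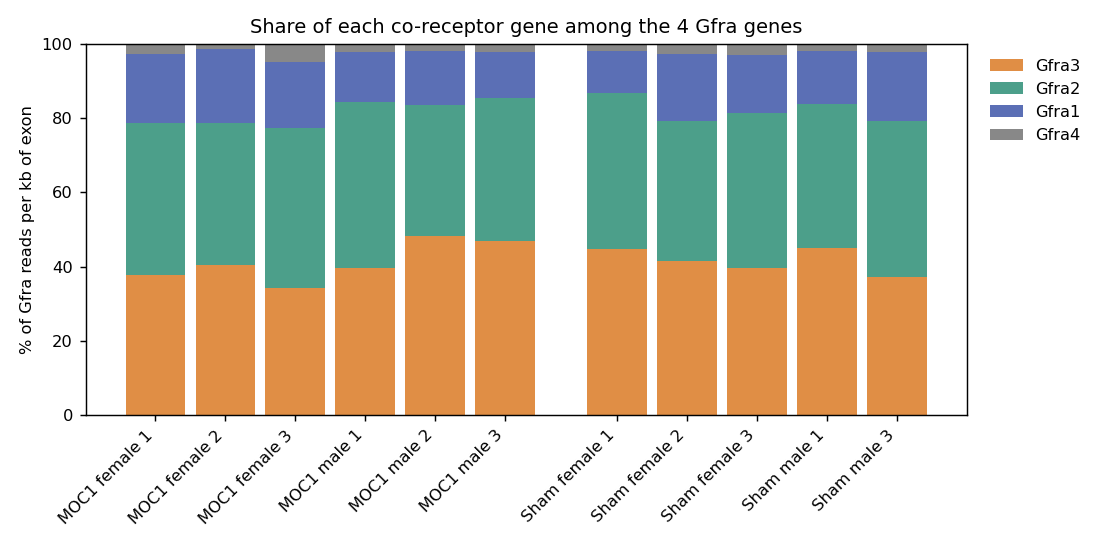
Share of each co-receptor gene among the 4 Gfra genes, in reads per kb of exon (vertical axis, percent), for each of the 6 MOC1 libraries (left) and 5 sham libraries (right). Gfra3 and Gfra2 make up most of each bar. The Gfra3 part is largest, at 48.4%, in MOC1 male 2 and smallest, at 34.3%, in MOC1 female 3. Both are among the libraries that stood apart in earlier work on these data.

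Split by sex, the estimates for the receptor genes differed, and no member was called by edgeR with the low-count filter. With no such filter edgeR called Gfra1 in females (adjusted p = 0.0165), at a log2 change of 0.47 ± 0.14 SE. The share of all genes called in females by that fit is not given here, so this call has no background to be set against. In females the log2 change of MOC1 over sham was 0.46 ± 0.13 SE for Gfra1 (adjusted p = 0.0564, edgeR over all genes) and 0.29 ± 0.09 SE for Ret (adjusted p = 0.0814, edgeR). Both genes had all 3 MOC1 females above all 3 sham females. The groups of females did not overlap for 21.3% of all genes tested, for 8.87% with MOC1 higher and for 12.4% with MOC1 lower. In the same females Gfra2 stood at 0.13 ± 0.12 SE, Gfra3 at -0.05 ± 0.13 SE and Gfra4 at 0.37 ± 0.49 SE, and these 3 genes overlapped between the groups.

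In males the log2 change was 0.41 ± 0.15 SE for Gfra3 (adjusted p = 0.349, edgeR) and 0.25 ± 0.13 SE for Gfra2 (adjusted p = 0.696, edgeR). Ret stood at 0.06 ± 0.10 SE, Gfra1 at 0.00 ± 0.15 SE and Gfra4 at 0.26 ± 0.55 SE. All 3 MOC1 males lay above both sham males for Gfra2, Gfra3 and Gfra4, as they did for 13.1% of all genes tested. The groups of males did not overlap for 27.9% of all genes in either direction, and for 14.8% with MOC1 lower. Gdnf, at 0 reads in the MOC1 males and 11 in each sham male, passed the filter through the sham libraries. Its lack of overlap in males rests on zeros, and nothing is read from it. In females edgeR called 753 of all genes (4.48%), 1.33% higher and 3.15% lower. In males it called 211 (1.25%), 0.166% higher and 1.09% lower. At an unadjusted p under 0.05 there were 2903 of the 16817 genes tested in females and 1337 in males. Among them were 2 members in females (Ret and Gfra1) and 1 in males (Gfra3).

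The difference between the sexes was tested as an interaction. The female change exceeded the male change by a log2 of 0.46 ± 0.20 SE for Gfra1 (unadjusted p = 0.0339) and fell short of it for Gfra3, at -0.45 ± 0.20 SE (unadjusted p = 0.0368). Neither passed in edgeR's quasi-likelihood test with adjustment over all genes (adjusted p = 1.00 for both). Of all 16817 genes 0 were called for the interaction by edgeR (0%), and 708 had an unadjusted p under 0.05. The other members tested had unadjusted interaction p-values between 0.101 and 0.887 in edgeR.

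**Figure D3:**
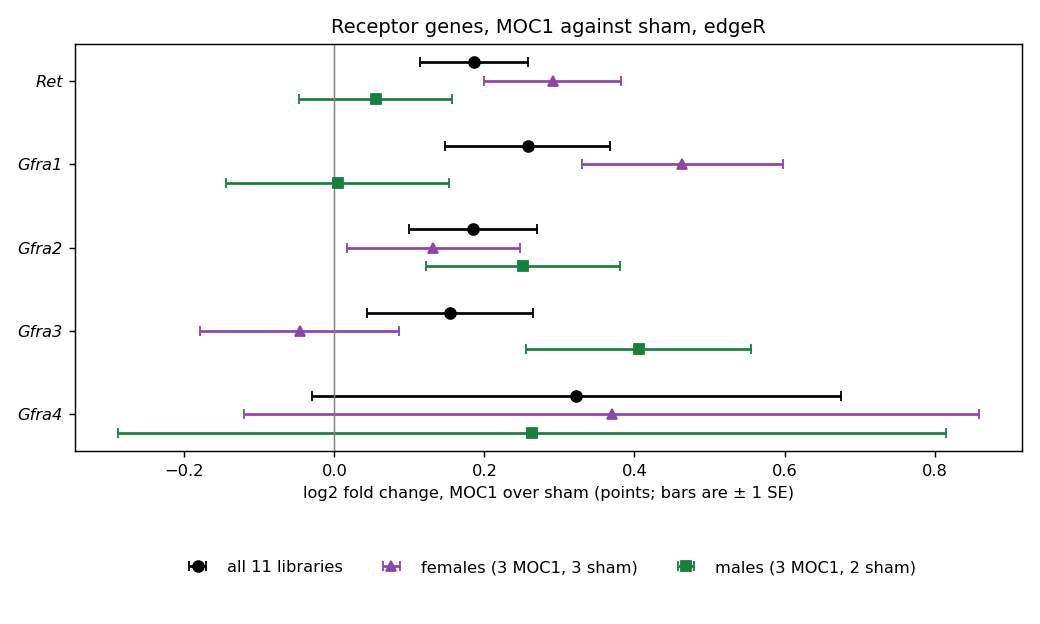
Log2 fold change of MOC1 over sham (horizontal axis; points, with bars of ± 1 SE) for the 5 receptor genes, from all 11 libraries (black circles), from the females (purple triangles) and from the males (green squares). Gfra1 stands at 0.46 in females and 0.00 in males, Gfra3 at -0.05 in females and 0.41 in males, and no point was called after adjustment.

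The small differences of the receptor genes depended on what the libraries were scaled to. With TMM, the log2 changes of the 5 receptor genes lay between 0.15 and 0.32, where the median of all genes was -0.03. When the 20 pan-neuronal genes set the scale, the median of all genes moved to -0.30, Ret stood at -0.086, Gfra1 at -0.0067, Gfra2 at -0.086, Gfra3 at -0.13 and Gfra4 at 0.07, and none was called by edgeR. When the 16 satellite glia genes set it, the median moved to 1.02, and the 5 receptor genes lay between 1.20 and 1.43 and were all called higher, as were 9871 of all genes. A change of scaling shifts all genes nearly alike, so the distance of a receptor gene from the median is set by the first scaling. Against the pan-neuronal genes the adjusted p of the 5 ran from 0.613 for Ret to 0.981 for Gfra1 (edgeR).

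**Figure D4:**
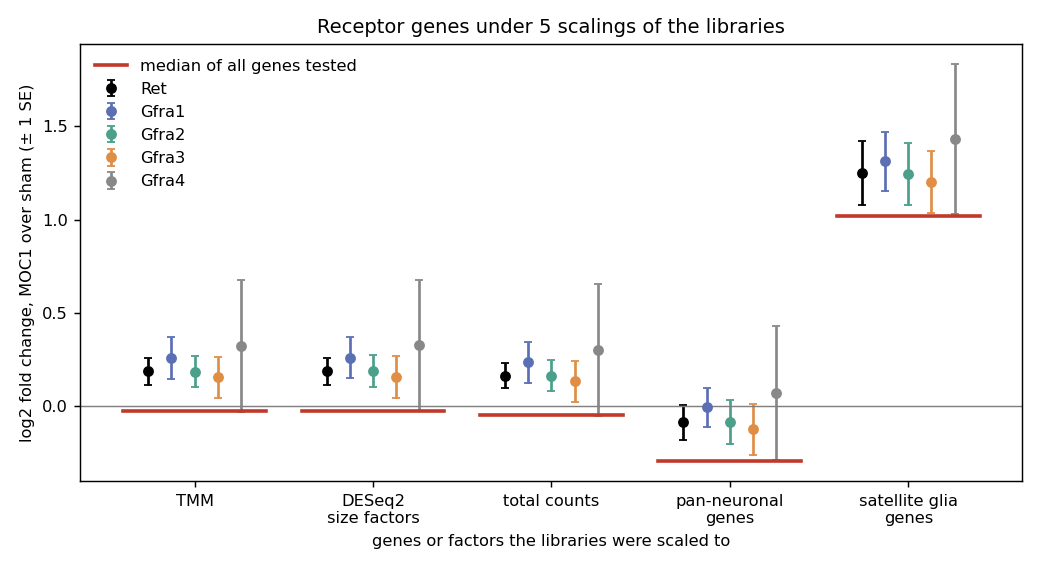
Log2 fold change of MOC1 over sham (vertical axis; points, with bars of ± 1 SE) of the 5 receptor genes when the 11 libraries are scaled by TMM, DESeq2 size factors, total counts, 20 pan-neuronal genes or 16 satellite glia genes. The red lines mark the median of all genes tested, which lies at -0.03 with TMM, -0.30 with pan-neuronal and 1.02 with satellite glia scaling, and shifts with the receptor genes.

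Adaptors and enzymes that carry the RET signal were mostly not called. Of 24 such genes 23 were tested, edgeR called 2 higher and 0 lower and did not call 21, with a median log2 change of 0.05. Dok4, an adaptor that binds phosphorylated RET, averaged 348 ± 22.2 CPM with MOC1 (SD, n = 6) and 268 ± 16.0 CPM with sham (SD, n = 5), a log2 change of 0.37 ± 0.07 SE (adjusted p = 0.00228, edgeR). Stat3, a transcription factor activated by many receptors, averaged 592 ± 54.2 CPM with MOC1 and 478 ± 30.7 CPM with sham (log2 0.30 ± 0.07 SE, adjusted p = 0.0151, edgeR). Neither was called with pan-neuronal scaling, where 3 other genes of the list, Gab1 among them, were lower, Dok4 stood at 0.11 and Stat3 at 0.03, and Stat3 was not called without sham male 3 (adjusted p = 0.0510, edgeR). The docking protein gene Gab1 stood at -0.36 ± 0.11 SE (adjusted p = 0.0572, edgeR), and was called lower by DESeq2 (adjusted p = 0.0306), with total-count scaling (0.0464) and with no low-count filter (0.0449). With satellite glia scaling Gab1 stood at 0.67 and was called higher, below the median of all genes there, 1.02. The adaptor gene Shc3 stood at -0.85 ± 0.41 SE (adjusted p = 0.283, edgeR).

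Among 12 genes of RET turnover and feedback inhibition, edgeR called 3 lower and 0 higher and did not call 9, with a median log2 change of -0.48. Lrig1, a transmembrane inhibitor of RET and other receptor kinases, averaged 17.1 ± 3.50 CPM with MOC1 and 31.1 ± 4.48 CPM with sham (log2 -0.89 ± 0.19 SE, adjusted p = 0.00536, edgeR). Sh3kbp1, an adaptor of receptor endocytosis, averaged 42.6 ± 3.97 CPM with MOC1 and 61.7 ± 4.85 CPM with sham (log2 -0.53 ± 0.11 SE, adjusted p = 0.00612, edgeR). Dusp6, a phosphatase that is induced by and dampens ERK signalling, averaged 45.1 ± 10.6 CPM with MOC1 and 71.2 ± 12.4 CPM with sham (log2 -0.68 ± 0.17 SE, adjusted p = 0.0181, edgeR). With satellite glia scaling Lrig1 stood at 0.15 and Dusp6 at 0.33 and neither was called, while Sh3kbp1 stood at 0.52 and was called higher, all below the median of all genes there. With pan-neuronal scaling 6 of the 12 were lower, and without the 3 libraries that stood apart 4 were lower, with a median of -0.13. Ptprf, a receptor phosphatase, stood at 0.22 ± 0.08 SE (adjusted p = 0.123, edgeR) and was called higher by DESeq2 (adjusted p = 0.0480) and voom with quality weights (0.0478). With pan-neuronal scaling Ptprf stood at -0.05 and was not called. The feedback inhibitor Spry2 stood at -0.45 ± 0.17 SE (adjusted p = 0.142, edgeR), and was called lower with pan-neuronal scaling (adjusted p = 0.00690), without sham female 1 (0.0315) and without the 3 libraries that stood apart (0.0322). With satellite glia scaling Spry2 stood at 0.62 and was called higher, below the median of all genes there.

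Of 8 other receptors and ligands linked to the family, 7 were tested, and edgeR called 3 lower and 0 higher and did not call 4, with a median of -0.61. Ncam1, an adhesion molecule that can serve GDNF with Gfra1 in the absence of RET, averaged 285 ± 22.7 CPM with MOC1 and 438 ± 18.8 CPM with sham (log2 -0.61 ± 0.07 SE, adjusted p = 1.68e-05, edgeR). Sdc3, a heparan sulphate proteoglycan that binds GDNF, averaged 292 ± 41.8 CPM with MOC1 and 538 ± 48.6 CPM with sham (log2 -0.88 ± 0.09 SE, adjusted p = 1.22e-05, edgeR). Sort1, a sorting receptor, averaged 119 ± 14.0 CPM with MOC1 and 166 ± 15.3 CPM with sham (log2 -0.48 ± 0.09 SE, adjusted p = 0.00269, edgeR). With satellite glia scaling Ncam1 stood at 0.43 and Sort1 at 0.56 and both were called higher, while Sdc3 stood at 0.15 and was not called, all below the median of all genes there. Sorl1, a sorting receptor that binds GDNF and Gfra1, stood at 0.22 ± 0.08 SE (adjusted p = 0.146, edgeR), and was called higher without sham male 3 (adjusted p = 0.0231). With pan-neuronal scaling Sorl1 stood at -0.05 and was not called. Gas1, a distant relative of the Gfra genes, stood at -1.31 ± 0.80 SE (adjusted p = 0.436, edgeR). Gfral, the co-receptor that couples GDF15 to RET in the hindbrain, had 0 reads in every library.

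Among 10 transcription factors of the Ret lineage or the GDNF response, 8 were tested, and edgeR called 2 lower and 0 higher and did not call 6, with a median of 0.01. Maf, a factor of low-threshold mechanoreceptors, averaged 59.4 ± 9.80 CPM with MOC1 and 91.7 ± 18.0 CPM with sham (log2 -0.62 ± 0.14 SE, adjusted p = 0.00791, edgeR). Sox10, which drives Ret in neural crest and also marks glia, stood at -0.70 ± 0.17 SE (adjusted p = 0.0176, edgeR). Sox10 was not called without MOC1 female 2 or without sham female 2. With satellite glia scaling Maf stood at 0.42 and was called higher, while Sox10 stood at 0.31 and was not called. Both lay below the median of all genes there, 1.02. The ETS factor gene Etv4 stood at -1.32 ± 0.54 SE (adjusted p = 0.186) and Mafa at 1.14 ± 0.55 SE (adjusted p = 0.278, edgeR). Sox10 is also 1 of the 16 satellite glia markers. The summed satellite glia markers, given above, were lower in MOC1 libraries as well, and their part in the change of these genes was not tested.

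The neuron classes that carry these receptors were followed by their markers. Of 12 markers of nonpeptidergic neurons edgeR called 1 higher, Agtr1a, an angiotensin receptor gene (log2 0.74 ± 0.15 SE, adjusted p = 0.00363, edgeR), and did not call 11, with a median of 0.14. P2rx3, an ATP-gated channel, stood at 0.25 ± 0.08 SE (adjusted p = 0.06, edgeR). It was called higher by DESeq2 (adjusted p = 0.0128), by voom with quality weights (0.0268), with no low-count filter (0.0396) and with a filter of 1 CPM in 5 libraries (0.0484), and also with no sex term, without MOC1 male 2 and without the 3 libraries that stood apart. The plexin Plxnc1 stood at 0.22 ± 0.08 SE (adjusted p = 0.137, edgeR), and was called by voom (0.0439), with no low-count filter (0.0494), without MOC1 male 2 (0.0483) and without the 3 libraries that stood apart (0.0344). The 12 markers summed to between 4178 and 5872 CPM in MOC1 and between 4116 and 4891 CPM in sham libraries. Of 6 markers of peptidergic neurons edgeR called 3 higher, Trpa1 (log2 0.84 ± 0.10 SE), Calca (0.28 ± 0.07 SE) and Trpv1 (0.32 ± 0.08 SE), and the 6 summed to between 2671 and 3620 CPM in MOC1 and between 2147 and 2459 CPM in sham libraries. Adcyap1 stood at 0.39 ± 0.13 SE (adjusted p = 0.0928) and Tac1 at 0.32 ± 0.12 SE (adjusted p = 0.117, edgeR), and the list's median was 0.32. Both were called higher by DESeq2 (adjusted p = 0.0324 for Adcyap1 and 0.0393 for Tac1), by voom with quality weights (0.0118 and 0.0371), with no low-count filter (0.000242 and 0.00160) and without sham female 1 (0.00245 and 0.0238). With pan-neuronal scaling Trpa1 stood at 0.56 and was called (adjusted p = 0.00871, edgeR), while Agtr1a stood at 0.48, Calca at 0.01 and Trpv1 at 0.05, none of these 3 called, and 1 other nonpeptidergic marker was lower. Under that scaling P2rx3 stood at -0.02, Plxnc1 at -0.05, Adcyap1 at 0.10 and Tac1 at 0.04, and edgeR called none of them. Calca and Trpv1 were not called without MOC1 female 2, sham male 1 or sham male 3, with adjusted p from 0.0523 to 0.102 (edgeR). Without the 3 libraries that stood apart, 3 nonpeptidergic and 5 peptidergic markers were higher.

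**Figure D5:**
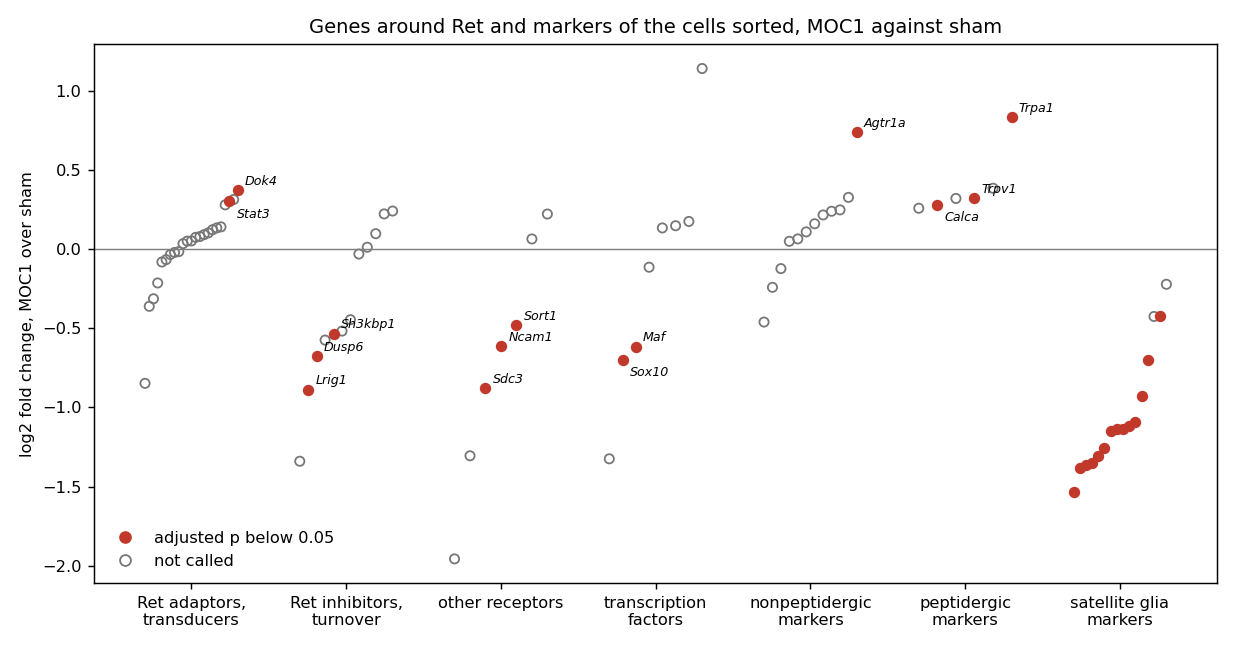
Log2 fold change of MOC1 over sham with TMM scaling (vertical axis) for every tested gene of 7 lists (horizontal axis), one point a gene. Filled red points have an adjusted p below 0.05 in edgeR and open grey points do not, and called genes are named except in the satellite glia list, where 14 of 16 are lower. Lower are 3 of 12 Ret inhibitors, 3 of 7 other receptors and 2 of 8 transcription factors. Higher are 2 of 23 Ret adaptors, 1 of 12 nonpeptidergic and 3 of 6 peptidergic markers. Of all genes tested 4.28% were lower and 2.34% higher. The counts depend on the scaling. With pan-neuronal scaling 0 adaptors were higher and 3 lower, and with satellite glia scaling 7 inhibitors were higher and 0 lower.

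The genes that tracked each receptor most closely were found by Pearson's r of log2 CPM over the 11 libraries, among 11302 genes of at least 5 CPM on average. The mean of the MOC1 libraries and that of the sham libraries were subtracted first. Differences between the sexes within MOC1 or sham were left in, and their part in each r was not tested. For Ret they were Cep170 (r = 0.96), a centrosomal protein gene, Grk2 (0.93), the gene of a kinase of G-protein-coupled receptors, and Gnb4 (0.93), a G-protein subunit gene. For Gfra2 they included Xkr4 (0.93) and Fstl1 (0.91). For Gfra3 they were Trpv1 (0.93), the heat and capsaicin channel, Herc4 (0.92) and Cramp1l (0.91). For Gfra1 they were Scrn1 (0.90), Cers6 (0.87) and Med14 (0.86). Without the 2 libraries farthest from the median of the receptor gene, r was 0.94 for Cep170 with Ret, 0.93 for Xkr4 with Gfra2, 0.88 for Trpv1 with Gfra3 and 0.71 for Scrn1 with Gfra1. For Gfra4 they were Gnpat (0.93), Slc25a53 (0.93) and Taf5l (0.92), which fell to 0.69, 0.77 and 0.46 without those 2 libraries. Between the receptor genes themselves, r was 0.55 for Ret and Gfra2, 0.10 for Ret and Gfra1, -0.15 for Ret and Gfra3, -0.48 for Gfra1 and Gfra2, and -0.55 for Gfra1 and Gfra3. Without the 2 libraries farthest from the median of the gene named first, these were 0.39, 0.26, 0.01, -0.74 and -0.62, in that order. Without the 2 farthest from the median of the gene named second they were 0.69, 0.04, 0.19, -0.40 and -0.51. Whether an r rose or fell thus depended for some pairs on the gene that set the libraries left out. These values describe 11 libraries, and the leading genes are the top of a long ranking, so no p is given.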

How the data were processed

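The authors deposited raw read counts per gene for each library, per the file headers and the series' design text. They are whole numbers from STAR with strand-specific settings, without normalization. Trimmomatic 0.35, STAR 2.7.1a, RSEM and GRCm38 (mm10) are named per the submitters' processing notes, with an annotation release not given in the sources used here. Of 55401 gene identifiers, 54349 matched GENCODE M21 with version and coordinates, which gave exon and coding lengths. The 4 totals that name no gene (18.7% to 21.5% of counts) stayed out of library sizes and tests.

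Counts were tested in R 4.3.3 with edgeR 4.0.16 (filterByExpr, TMM, quasi-likelihood F test, sex as an additive term, Benjamini-Hochberg over 16817 genes, threshold 0.05). A fit of the 4 groups of tumour and sex gave the changes within sexes and the interaction. SE is the log2 change over the square root of F. Alternatives used DESeq2 1.42.0 and limma 3.58.1. The tests were run first on simulated data. The members, the 16 gene lists and the libraries said to stand apart were chosen with earlier results of these data known. Named list genes are the up to 6 called with the smallest p and up to 2 that were not called. For lists of pan-neuronal, glial, stromal and tumour markers only leading genes by p are named. Some genes that the naming rules take are not reported here.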

Additional observations from a re-analysis of the deposited data

Results flagged for a closer look

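Within a group of libraries, a single value lay far from the others in 6 of the 15 sets of values compared, where chance flags about 1 in 20 groups of continuous values. That rate does not hold for the 5 of ligand genes, whose sets are mostly zeros or a few reads, and where all other values are 0 a single read count is bound to stand out. Gfra4 stood at 14.3 CPM in MOC1 female 3, with the other MOC1 libraries at 7.59 CPM or less. Gdnf stood at 0.742 CPM in MOC1 female 1, with the other MOC1 libraries at 0, and at 0 CPM in sham female 1, with the other sham libraries at 0.649 CPM or more. Nrtn stood at 0.532 CPM in MOC1 female 2 and at 0.826 CPM in sham female 3. Artn stood at 0.446 CPM in MOC1 male 3. MOC1 female 3 and sham female 1 are among the libraries that stood apart in earlier work on these data.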

How the results depend on the processing

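The count of members called, 0 higher and 0 lower, was the same without each library in turn (0 to 0) and under every other alternative but satellite glia scaling, with 5 higher. Within females 1 member, Gfra1, was called with no low-count filter (adjusted p = 0.0165, edgeR), a fit whose share of all genes called is not given here. The fits by sex were not repeated with libraries left out. Over all genes, 27 were higher and 1887 lower with pan-neuronal scaling, 9871 and 68 with satellite glia scaling, 648 higher with DESeq2, and 0 and 0 with the satellite glia covariate in edgeR, where 1264 had an unadjusted p under 0.05. Without each library in turn 250 to 427 were higher and 559 to 740 lower; 250 were higher without MOC1 female 2 and 258 without sham male 3.

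Signs turned with pan-neuronal scaling for Ret (-0.086), Gfra1 (-0.0067), Gfra2 (-0.086) and Gfra3 (-0.13), and with the glial covariate, which does not overlap between the groups, for Ret (-0.27), Gfra2 (-0.18) and Gfra4 (-0.92). Gdnf came out at 8.51 there, a value that rests on zeros and is not read as a turned sign. Without MOC1 female 3, MOC1 male 2 and sham female 1, Gfra4 stood at -0.018. The causes were not tested. Ret ran from 0.14 to 0.22 without each library in turn (adjusted p 0.0691 to 0.321, edgeR).

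By coding length Gfra1 held 27.8%, Gfra2 37.1% and Gfra3 32.7% of the Gfra reads per kb over all libraries, against 15.9%, 40.3% and 41.4% by exon length. Same-numbered libraries did not deviate together (r from -0.04 to 0.04). With the replicate block Ret stood at 0.22 (adjusted p = 0.135, edgeR), and 0 members were called.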
